A study of Mus musculus with 26 samples.

Results

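The response of primary mouse keratinocytes to the cytokines IL17A and TNFα was compared between WT and *Pla2g4d*-deficient (KO) cells as a change within each mouse. All 26 libraries of the series entered this comparison (26 of 26). Each of 5 WT and 8 KO mice gave 1 library from cells under basal conditions and 1 from cells treated with cytokines, and the title prefix of a library (WT1 to WT5, KO1 to KO8) names its mouse. The 4 groups were thus WT basal (n = 5), WT with cytokines (n = 5), KO basal (n = 8) and KO with cytokines (n = 8). Cells of all groups came from the skin of C57BL/6NJ mice at 2 days of age and were cultured for 4 days in medium with 0.06 mM CaCl2. For treatment both cytokines were then added at 20 ng/ml each for 24 h, and basal cells received neither. The KO mice carry a germline deletion of *Pla2g4d* exon 3 in every cell and were bred as homozygotes, so that WT and KO pups did not share litters and genotype cannot be told apart from litter. Wells of the same animal were pooled for each library. The labels gave no sex, litter or sequencing batch.

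IL17A and TNFα are the main inflammatory cytokines of psoriasis, a disease in which keratinocytes divide fast and form an altered cornified layer. TNFα acts through NF-kB and MAP kinases, and IL17A strengthens the same output, so that keratinocytes release chemokines that attract neutrophils, more cytokines and antimicrobial proteins, while early differentiation genes are turned down. PLA2G4D, a cytosolic phospholipase A2 and acyltransferase, is itself induced by these cytokines in keratinocytes. An interaction of genotype and cytokines asks, for each gene, whether the change from basal to treated cells differs between genotypes. It is given here as the fitted KO change minus the fitted WT change on a log2 scale. A negative value thus means a more negative (or less positive) change in KO cells. The interaction does not say in which condition the genotypes differ, and the genotype difference in each condition is therefore given beside it.

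Total counts per library were between 42072745 and 78102858. Keratinocyte genes were high in every library, with *Krt5* between 16003 and 23996 CPM (counts scaled to library size) and *Krt14* between 10923 and 17054 CPM. The basal layer keratin *Krt15* reached only 1.61 to 23.5 CPM. These keratin levels and the summed marker levels below were scaled to the total count of a library. All other CPM values were scaled to its TMM-adjusted size. Of the other cell types, 7 of 7 melanocyte markers were detected, and their summed level was 460 to 636 CPM in WT basal, 351 to 475 in WT treated, 478 to 633 in KO basal and 317 to 403 in KO treated libraries. All 7 had a negative interaction (median -0.29), and 3 of them (*Dct*, *Pmel*, *Tyrp1*) had an adjusted p under 0.1. In bulk samples fewer cells of a type and less RNA per cell cannot be told apart. The immune markers *Cd207* and *Cpa3*, the endothelial marker *Emcn* and the muscle marker *Myl1* were at 0 in every library. The summed levels over all groups were 10.96 to 28.6 CPM for immune, 1.78 to 7.12 for endothelial, 0.542 to 4.74 for muscle, 3.799 to 36.8 for adipocyte and 2.11 to 8.84 for fibroblast markers. The tested members *Acta1* (-0.79, adjusted p = 0.23), *Fabp4* (-0.53, adjusted p = 0.131) and *Pecam1* (-1.12, adjusted p = 0.154) had negative interactions that did not pass. Levels of these genes were higher with cytokines in both genotypes. Of 3 endothelial markers tested, *Pecam1* alone had a negative interaction, and the median of the list was 0.15. The nuclear RNA *Malat1* ranged from 2067 to 4858 CPM in WT basal and from 997 to 2672 CPM in KO basal libraries, and from 1639 to 2804 CPM and 1504 to 2534 CPM with cytokines. The nuclear RNA *Neat1* ranged from 521 to 857 CPM in WT basal and from 238 to 472 CPM in KO basal libraries, without overlap. With cytokines it ranged from 404 to 772 CPM and from 376 to 494 CPM. Its within-mouse log2 changes were -0.37 to 0.13 in WT and -0.06 to 0.66 in KO mice, and its interaction had an adjusted p under 0.1 (edgeR). The part of these cell types and of *Malat1* and *Neat1* in the results below was not tested.

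A few mice stood apart. Over the 1558 genes that rose in the average of both genotypes, the mean log2 change was 1.10 in WT1 but 1.49 to 1.71 in the other 4 WT mice. The KO mice ranged from 1.06 to 1.36, with KO4 and KO8 highest. WT1 thus lay within the KO range, and the other 4 WT mice lay above all KO mice. Genes that rose with cytokines therefore rose less in KO cells on average. The lists of induced genes below are set beside all genes and not beside other induced genes. Whether they differ from induced genes in general was not tested. The treated libraries of KO7 and KO8 differed from the other 6 treated KO libraries in early response genes. *Egr1* was 227 and 261 CPM in them and 76.1 to 97.7 CPM in the other 6, and *Fos* was 162 and 178 CPM against 76.5 to 94.2 CPM. Without KO7 and KO8, 66 of the 80 calls described below held and 14 were lost. The lost calls include *Il36b*, *Isg15*, *Calm5*, *Kcnmb1*, *Prlr*, *Sting1* and 4 of the 8 cornified envelope genes (*Lor*, *Sprr2f*, *Lce1f*, *Lce1i*).

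*Pla2g4d* itself (chr2:120096076-120119678, GRCm39) rose in both genotypes. Its within-mouse log2 changes were 4.54, 3.88, 3.90, 4.09 and 3.76 in WT1 to WT5 and 3.72 to 4.89 in the KO mice. The interaction was 0.22 ± 0.18 (SE, adjusted p = 0.676). Here and below, adjusted p values were those of the edgeR quasi-likelihood fit to all genes. Under basal conditions *Pla2g4d* was called lower in KO cells (log2 -0.70, adjusted p = 0.0935). Gene-level counts span all exons, and the loss of exon 3 could not be read from them.

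Of 16893 genes tested, 80 (0.474%) were called for the interaction (fold over 1.5, adjusted p under 0.1). The change was lower in KO cells for 64 genes (0.379%) and higher for 16 (0.0947%). Without the threshold on the fold, 350 genes were lower (2.07%) and 123 higher (0.728%), and 2063 genes had an unadjusted p under 0.05. The median interaction of all genes was -0.01. The cytokine response itself was far broader, with 1549 genes that rose (9.17%) and 910 that fell (5.39%) in WT cells, and 1153 that rose (6.83%) and 746 that fell (4.42%) in KO cells. The number of calls depended on single mice, being 156 without WT1, 45 without WT4, 47 without WT5 and 124 without KO4. It was also 124 without both KO7 and KO8. Without the mouse as a block it was 37, of which 36 were among the 80. With a limma fit of the within-mouse changes it was 50, of which 44 were among the 80. The calls named below are given with the mice on which they rest.

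**Figure D1:**
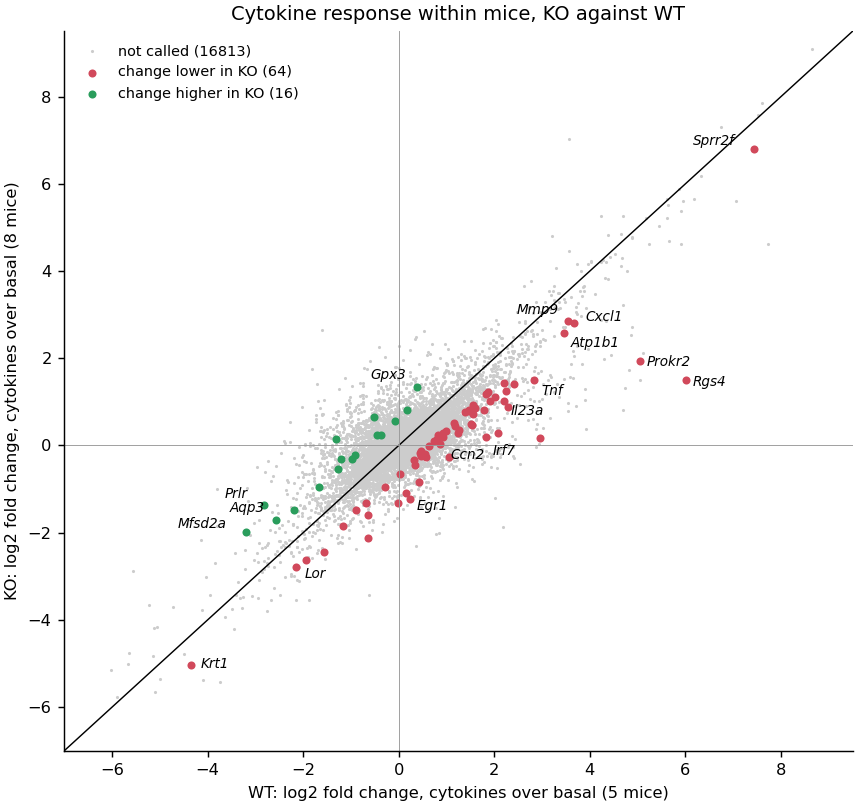
Log2 fold change with cytokines in KO mice (y axis, n = 8) against that in WT mice (x axis, n = 5) for 16893 genes, with the line of equal change. The 64 genes with a lower change in KO lie under the line, most of them among genes that rose in WT, and the 16 genes with a higher change lie above it, most of them among genes that fell in WT.

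Among the 64 genes with a lower change, 23 rose in both genotypes and 18 were called as rising in WT cells only. Another 8 fell in both genotypes and 7 were called as falling in KO cells only, while 8 were called in neither response. A weaker rise in KO cells was thus the most frequent form of the 64. Of the 16 genes with a higher change, 5 fell in both genotypes, 5 were called as falling in WT cells only, 3 were called as rising in KO cells only, and 3 were called in neither. The ranges of the 5 WT and 8 KO changes did not overlap for 19 of the 64 and 5 of the 16, and this held for 1.24% of all genes.

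The 64 genes varied in the condition in which the genotypes differed. KO cells lay above WT cells under basal conditions for 50 of them and below WT cells with cytokines for 44, and the difference was larger under basal conditions for 40. A negative interaction favours both of these signs, so the sign counts are no separate result. Over all genes, KO cells had 272 genes called higher (1.61%) and 181 called lower (1.07%) under basal conditions, and 25 called higher (0.148%) and 94 called lower (0.556%) with cytokines. Of the 64 genes, 32 were called higher in KO under basal conditions and in neither direction with cytokines. A further 11 were called lower in KO with cytokines and not under basal conditions, 1 (*Krt1*) was lower in both, and 20 were called in neither. These contrasts share their libraries with the interaction and are a description of the same values. *Tnf* and *Cxcl1* belong to the first pattern, in which KO cells started higher and ended at a level close to WT cells, and *Irf7*, *Egr2* and *Serpinb12* to the second, in which KO cells ended lower. Of the 16 genes with a higher change, 5 were called lower in KO under basal conditions (such as *Aqp3*), 1 (*Gpx3*) was called higher with cytokines, and 10 were called in neither condition.

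**Figure D2:**
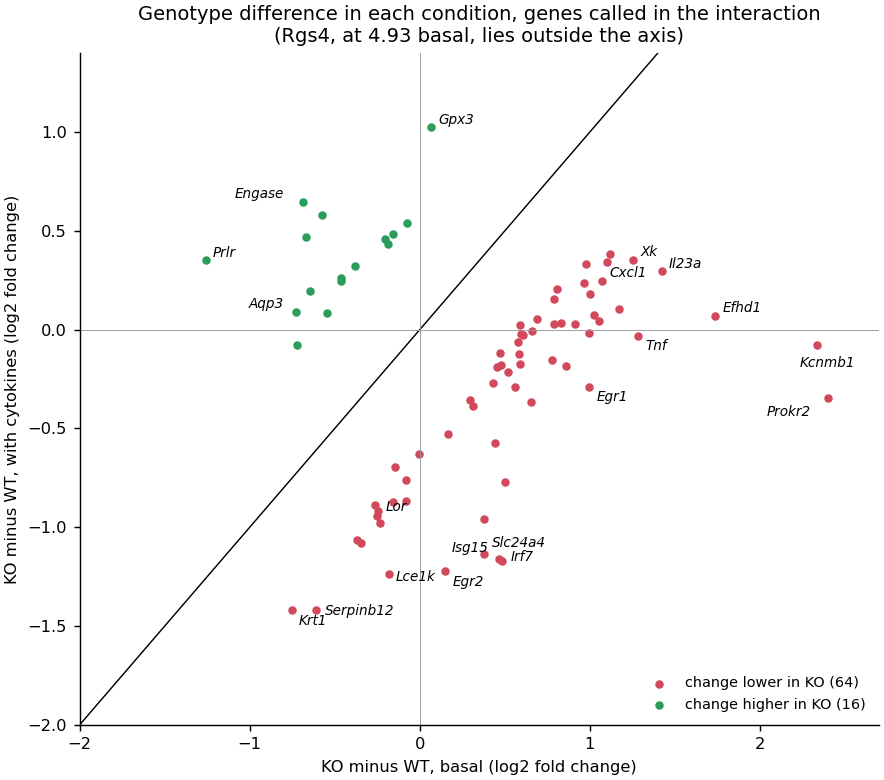
KO minus WT log2 fold change with cytokines (y axis) against that under basal conditions (x axis) for the 80 genes called in the interaction (*Rgs4*, at 4.93 on the x axis, lies outside the plot), from 5 WT and 8 KO mice, with the line of equal difference. A cluster of red points at basal differences over 0.4 and treated differences near 0 holds *Tnf*, *Cxcl1* and *Il23a*, and red points at treated differences under -1 include *Irf7*, *Egr2*, *Lce1k*, *Serpinb12* and *Krt1*.

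Among the cytokines and chemokines 5 genes were called, all with a lower change in KO cells. *Tnf* (chr17:35418357-35420983), which encodes the cytokine that was also added, changed by 2.18, 2.89, 3.16, 2.88 and 3.10 in WT1 to WT5, and by 0.68 to 2.41 (median 1.45) in KO mice. Only KO8 exceeded the lowest WT mouse. In WT cells the level was 5.13 ± 1.11 CPM before and 36.4 ± 3.13 CPM after treatment (SD, n = 5), and in KO cells 12.5 ± 2.75 and 35.6 ± 8.42 CPM (SD, n = 8). The interaction was -1.34 ± 0.22 (SE, adjusted p = 0.00228), which makes the rise 2.53 times smaller in KO cells. KO cells had more *Tnf* under basal conditions (log2 1.29, adjusted p = 2.38e-06) and not detectably more or less with cytokines (-0.03, adjusted p = 0.961). *Tnf* was called with each mouse left out in turn, and its interaction was -1.57 without KO7 and KO8.

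*Il23a* encodes the IL-23 subunit that keeps IL17-producing T cells active. Its changes were 1.78, 2.68, 2.54, 2.34 and 1.63 in WT1 to WT5 and 0.17 to 1.74 (median 1.07) in KO mice, which overlap in KO8 alone. The interaction was -1.18 ± 0.26 (SE, adjusted p = 0.0231), with a basal level of 0.984 ± 0.501 CPM in WT (SD, n = 5) and 2.62 ± 0.875 CPM in KO (SD, n = 8). *Il36b*, an epithelial cytokine of the IL-1 family, had changes of 0.08 to 0.94 in WT mice and of -0.47 to 0.07 in KO mice, just without overlap, with an interaction of -0.59 ± 0.13 (SE, adjusted p = 0.0205). It was not called without WT3, WT4, KO3, KO4 or KO7, where its fold went under the threshold (log2 -0.69 to -0.48 over all mice left out). Of 26 cytokine and colony-stimulating factor genes tested, these 3 were called lower and none higher, and *Il1a* (-0.45), *Lif* (-0.49) and *Il1rn* (-0.21) also had an adjusted p under 0.1 with a lower change and *Tslp* with a higher one. The median of the list was -0.20.

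The neutrophil attractant *Cxcl1* (chr5:91039094-91040974) changed by 3.06, 3.48, 4.07, 4.19 and 3.62 in WT1 to WT5 and by 2.37 to 3.49 (median 2.77) in KO mice. WT1 and WT2 overlap the KO range. The interaction was -0.86 ± 0.18 (SE, adjusted p = 0.0156), and basal KO cells held 12.9 ± 2.02 CPM (SD, n = 8) against 6.13 ± 1.86 CPM in WT (SD, n = 5). *Cxcl12*, the ligand of CXCR4, rose in WT (1.52) and was not called in KO (0.50), with an interaction of -1.01 ± 0.22 (SE, adjusted p = 0.0198). Its changes were 0.67 in WT1, 1.49 to 1.81 in the other WT mice and 0.10 to 1.38 in KO mice. Both chemokines were called with each mouse left out. Of 15 CXC and CC chemokines tested, these 2 were called lower and none higher, *Cxcl16* had an adjusted p under 0.1, and the median was -0.38. *Cxcl2* had a value of -1.37 ± 0.49 (SE) that did not pass (adjusted p = 0.2). Of 9 cytokine and chemokine genes that the study had named for higher basal levels in KO cells, all 9 had a negative interaction and 4 were called (*Cxcl1*, *Cxcl12*, *Il23a*, *Tnf*). That list was chosen on the same basal libraries and is not independent evidence of a direction.

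Of 24 NF-kB subunits and feedback regulators, 1 was called, the ubiquitin-editing inhibitor *Tnfaip3* (A20). It rose by 1.52 to 2.08 in WT mice and by 1.05 to 1.17 in 7 of 8 KO mice, and by 1.65 in KO8. The interaction was -0.63 ± 0.10 (SE, adjusted p = 0.00108), and without WT3 its fold went under the threshold (log2 -0.57). *Rela*, *Relb*, *Nfkb2*, *Nfkbia* and *Zc3h12a* had an adjusted p under 0.1 with a lower change, none had one with a higher change, and the list's median was -0.12. Of 30 receptors and adaptors of IL17A and TNFα 0 were called, and the median was -0.02. By the adjusted p alone, *Birc2* had a higher change and *Traf3ip2* a lower one. The antimicrobial and acute-phase proteins, with a median WT response of 4.01, had 0 of 20 called although 18 were negative (median -0.53; 52.3% of all genes were negative). Of these, 16 were called as rising in each genotype, and *S100a9* had an adjusted p under 0.1.

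The promoters of *Cxcl1* and *Tnfaip3* are shown because both genes hold a match to the NF-kB site among the cytokine-induced genes with a weaker rise. The 250 bases before the start site are printed 5′ to 3′ on the gene's strand (RefSeq, GRCm38.p6), and capitals mark the matches. *Cxcl1* lies on the plus strand at chr5:90890995-90891244 with 2 overlapping matches that start 71 and 70 bases before the start site. *Tnfaip3* lies on the minus strand at chr10:19015411-19015660 with matches that start 125 and 12 bases before it.
Cxcl1: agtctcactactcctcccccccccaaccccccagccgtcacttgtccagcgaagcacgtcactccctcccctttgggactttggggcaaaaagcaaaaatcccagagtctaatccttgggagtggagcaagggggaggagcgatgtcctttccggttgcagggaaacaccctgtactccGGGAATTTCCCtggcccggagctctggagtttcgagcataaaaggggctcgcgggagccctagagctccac
Tnfaip3: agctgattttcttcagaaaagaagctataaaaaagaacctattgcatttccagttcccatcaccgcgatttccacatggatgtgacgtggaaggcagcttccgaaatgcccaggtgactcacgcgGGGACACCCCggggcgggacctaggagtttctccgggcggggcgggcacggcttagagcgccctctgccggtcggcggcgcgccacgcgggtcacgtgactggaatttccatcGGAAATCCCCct
Promoters were given for 58 of the 80 called genes, from 250 bases before to 50 bases after the start. A match to the NF-kB site on either strand was found for 7 of 43 genes with a lower change (16.3%; *Calm5*, *Cxcl1*, *Egr2*, *Fos*, *Myl9*, *Tlr2*, *Tnfaip3*), for 4 of 15 genes with a higher change (26.7%), for 12.4% of the tested genes with a promoter and for 9.55% of all genes in the table. The AP-1 site (TGACTCA or TGAGTCA) was found for 4 of the 43 (9.3%), for 1 of the 15 (6.67%), for 4.98% of the tested genes and for 5.95% of all genes. The C/EBP site TTNNGNAA was found for 20 of the 43 (46.5%), for 4 of the 15 (26.7%), for 36% of the tested genes and for 44.1% of all genes. These matches are a description of letters and not of binding.

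The early response genes *Egr1* and *Egr2* fell in KO cells and were not called in WT cells. *Egr1*, an immediate early transcription factor, changed by 0.13, 0.29, 0.21, 0.48 and 0.04 in WT1 to WT5 and by -1.80 to -0.23 (median -1.47) in KO mice, without overlap. The fitted responses were 0.23 in WT and -1.23 in KO cells, and the interaction was -1.47 ± 0.22 (SE, adjusted p = 0.000842). Basal levels were 133 ± 29.0 CPM in WT (SD, n = 5) and 265 ± 23.7 CPM in KO (SD, n = 8). KO7 and KO8 changed by only -0.30 and -0.23, and without them the interaction was -1.77 (adjusted p = 1.1e-09).

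*Fos*, a subunit of AP-1, changed by 0.36, 0.50, 0.78, 0.78 and 0.48 in WT1 to WT5. Among KO mice 6 lay between -0.49 and -0.33, while KO7 and KO8 had changes of 0.14 and 0.47, the latter within the WT range. The interaction was -0.84 ± 0.14 (SE, adjusted p = 0.00225) and -1.01 without these mice. *Egr2* changed by -0.52 in WT1 and 0.11 to 1.03 in the other WT mice and by -1.91 to -0.28 in KO mice (interaction -1.25 ± 0.30, SE, adjusted p = 0.0404), and it was not called without WT2, WT4 or WT5 (adjusted p up to 0.134). *Dusp1*, a MAP kinase phosphatase, had an interaction of -0.64 ± 0.17 (SE, adjusted p = 0.0719) and lost its call without WT3, WT4, WT5, KO1, KO2, KO3, KO5 or KO6 (adjusted p up to 0.228). Of 33 AP-1, C/EBP and immediate early genes tested, these 4 were called and 30 had a negative value (median -0.25; 52.3% of all genes were negative). *Jun*, *Atf3*, *Ier2*, *Ier3*, *Klf6*, *Zfp36*, *Dusp5* and *Dusp6* also had an adjusted p under 0.1. The *Jun* changes were -0.01 to 0.11 in WT and -0.75 to -0.23 in KO mice, without overlap (interaction -0.53 ± 0.07, SE, adjusted p = 0.000535), which is under the threshold on the fold.

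**Figure D3:**
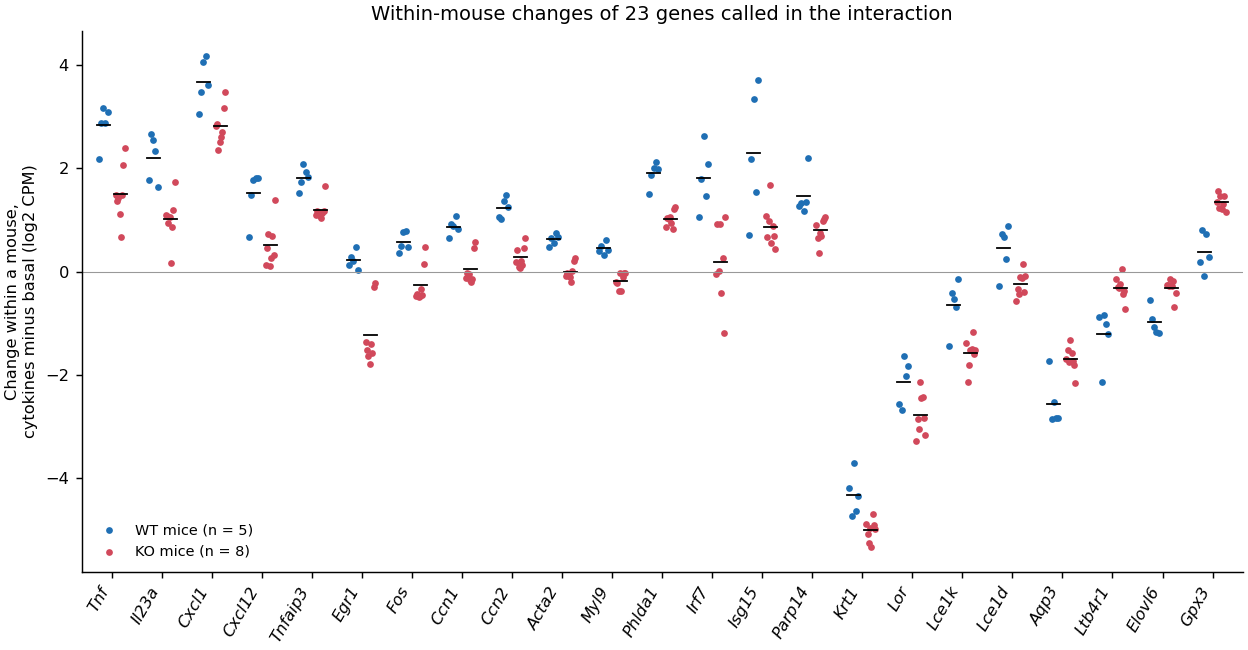
Within-mouse change from basal to treated cells (y axis, log2 CPM) for 23 genes called in the interaction, with 1 point per mouse (blue WT, n = 5; red KO, n = 8) and a line at each mean. KO means lie under WT means from *Tnf* to *Lce1d* and above them from *Aqp3* to *Gpx3*, and KO7 and KO8 are the pair of upper red points of *Egr1*, *Fos* and *Ccn1*.

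Genes of the actin cytoskeleton were the list with the most members past the adjusted p. All 49 members tested had a negative interaction, 32 with an adjusted p under 0.1, 5 of them called, and none was higher. The median was -0.24. In WT cells 16 of the 49 were called as rising, in KO cells 3. Over all genes tested, 52.3% had a negative interaction, and 9.17% were called as rising in WT and 6.83% in KO cells. The mean change over the list was 0.44, 0.60, 0.52, 0.54 and 0.59 in WT1 to WT5 and 0.13 to 0.36 in KO mice, so that all 8 KO mice lay under all WT mice. KO cells started higher (median 0.37 under basal conditions) and ended close to WT cells (median 0.10 with cytokines).

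*Acta2* (chr19:34217737-34232990), which encodes smooth muscle actin, changed by 0.48, 0.65, 0.56, 0.76 and 0.67 in WT1 to WT5 and by -0.21 to 0.27 (median -0.05) in KO mice. WT cells held 313 ± 23.4 CPM before and 484 ± 57.9 CPM after treatment (SD, n = 5), and KO cells 541 ± 51.6 and 539 ± 46.1 CPM (SD, n = 8), with an interaction of -0.63 ± 0.07 (SE, adjusted p = 9.26e-05). *Ccn2* and *Ccn1* encode matrix-bound proteins known as targets of YAP and of serum response factor. *Ccn2* (chr10:24471333-24474900) changed by 1.05, 1.01, 1.37, 1.48 and 1.26 in WT and by 0.06 to 0.65 (median 0.20) in KO mice, and it had the smallest adjusted p of all genes together with *Phlda1* (3.77e-05; interaction -0.96 ± 0.10, SE). *Ccn1* changed by 0.65 to 1.07 in WT mice, by -0.20 to -0.02 in 6 KO mice and by 0.46 and 0.58 in KO7 and KO8 (interaction -0.83 ± 0.12, SE, adjusted p = 0.000616), and the interaction was -0.98 without these mice. None of these 3 genes overlapped between genotypes, and each was called with every mouse left out.

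*Myl9*, a myosin light chain, had positive changes in 5 of 5 WT mice (0.32 to 0.61) and negative ones in 8 of 8 KO mice (-0.39 to -0.03), with an interaction of -0.63 ± 0.07 (SE, adjusted p = 1e-04). Without WT4 its fold went under the threshold (log2 -0.58). *Tagln*, an actin-binding protein, had an interaction of -0.65 ± 0.15 (SE, adjusted p = 0.0316) and was not called without WT5 (adjusted p = 0.117). *Actb* had a small difference with little spread, with changes of 0.61 to 0.69 in WT and 0.14 to 0.38 in KO mice (interaction -0.38 ± 0.04, SE, adjusted p = 9.26e-05). *Actn1* (-0.36), *Tpm1* (-0.33), *Cnn2* (-0.36), *Zyx* (-0.35), *Pdlim7* (-0.43), *Lasp1* (-0.31) and *Fblim1* (-0.54), which is no member of the list, did not overlap between genotypes either.

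The promoter of *Myl9* is shown for its CArG box, the site of serum response factor, which is known to drive actin and early response genes. It lies on the plus strand at chr2:156775214-156775463 (RefSeq, GRCm38.p6), and the capitals mark the match, which starts 161 bases before the start site.
Myl9: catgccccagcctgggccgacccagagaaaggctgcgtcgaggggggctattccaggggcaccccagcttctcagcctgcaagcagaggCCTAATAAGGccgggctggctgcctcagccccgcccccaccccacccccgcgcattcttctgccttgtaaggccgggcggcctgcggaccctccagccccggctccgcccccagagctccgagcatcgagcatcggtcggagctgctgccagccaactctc
The CArG box was added to the motifs after the values were seen. It was found for 3 of the 43 genes with a lower change (6.98%; *Egr2*, *Lurap1l*, *Myl9*), for 0 of 15 with a higher change, for 1.6% of the tested genes with a promoter and for 1.81% of all genes in the table. The pattern was CC and GG around a core of A and T letters only, with no mismatch allowed. *Acta2*, *Ccn1* and *Fos* held no match to this strict pattern in this window, and no promoter of *Ccn2* was given. These matches, too, are a description of letters and not of binding, and a part of serum response factor in the interaction was not tested.

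Other called genes rose in both genotypes and by less in KO cells. *Plaur*, the urokinase receptor, rose by 1.87 to 2.71 in WT and 0.99 to 2.02 in KO mice (interaction -0.996 ± 0.14, SE, adjusted p = 0.00078). *Mmp9*, a gelatinase, had an interaction of -0.67 ± 0.19 (SE, adjusted p = 0.0841) that was lost without WT3, WT4, WT5, KO1, KO2, KO3, KO5, KO6 or KO7 (adjusted p up to 0.285). *Hbegf*, an EGF receptor ligand, rose by 1.80 to 2.54 in WT and 1.23 to 1.80 in KO mice (-0.78 ± 0.11, SE, adjusted p = 0.000588). It was the only called gene of 19 EGF receptor genes and ligands.

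The peptide hormone genes *Edn1* (endothelin-1) and *Nppb* (brain natriuretic peptide) followed the same course. *Edn1* rose by 1.34 to 1.79 in WT and by 0.44 to 1.38 in KO mice (-0.82 ± 0.13, SE, adjusted p = 0.00163). *Nppb* rose by 1.73 to 2.54 in WT and by 0.88 to 1.76 in KO mice (-1.01 ± 0.15, SE, adjusted p = 0.000842). *Inhba*, which encodes activin A, rose by 1.09 to 1.72 and 0.58 to 1.31 (-0.64 ± 0.10, SE, adjusted p = 0.00166), and its fold went under the threshold without WT4 (log2 -0.58). *Tlr2*, a receptor for bacterial lipoproteins, rose by 1.72 to 1.97 in WT and 0.81 to 1.70 in KO mice (-0.64 ± 0.11, SE, adjusted p = 0.00217), with a fold under the threshold without KO5 (log2 -0.58). *Phlda1* rose by 1.51 to 2.13 in WT and 0.83 to 1.26 in KO mice, without overlap (-0.88 ± 0.09, SE). *Atp1b1*, a subunit of the sodium pump, rose by 3.45 in WT and 2.58 in KO cells (-0.87 ± 0.17, SE, adjusted p = 0.0096). Except for *Inhba*, *Mmp9* and *Tlr2*, the genes of this group were called with every mouse left out.

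The largest fitted values belonged to genes close to 0 in basal WT cells and are given as levels. *Rgs4*, a regulator of G protein signalling, was at 0 to 0.0322 CPM in WT basal, 0.144 to 1.13 in WT treated, 0.0542 to 0.736 in KO basal and 0.295 to 0.948 CPM in KO treated libraries. *Prokr2*, a prokineticin receptor, was at 0 to 0.277, 1.24 to 2.42, 0.205 to 0.746 and 1.03 to 2.28 CPM, and *Kcnmb1* at 0 to 0.258, 0.113 to 0.796, 0.0766 to 0.84 and 0.253 to 1.19 CPM in the same order. Their interactions of -4.52, -3.09 and -2.79 depend on the treatment of counts near 0, and all 3 calls were lost without WT4 or WT5, that of *Rgs4* also without WT2, and that of *Kcnmb1* also without WT1, WT2, KO1, KO3, KO4, KO5, KO6 or KO8.

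**Figure D4:**
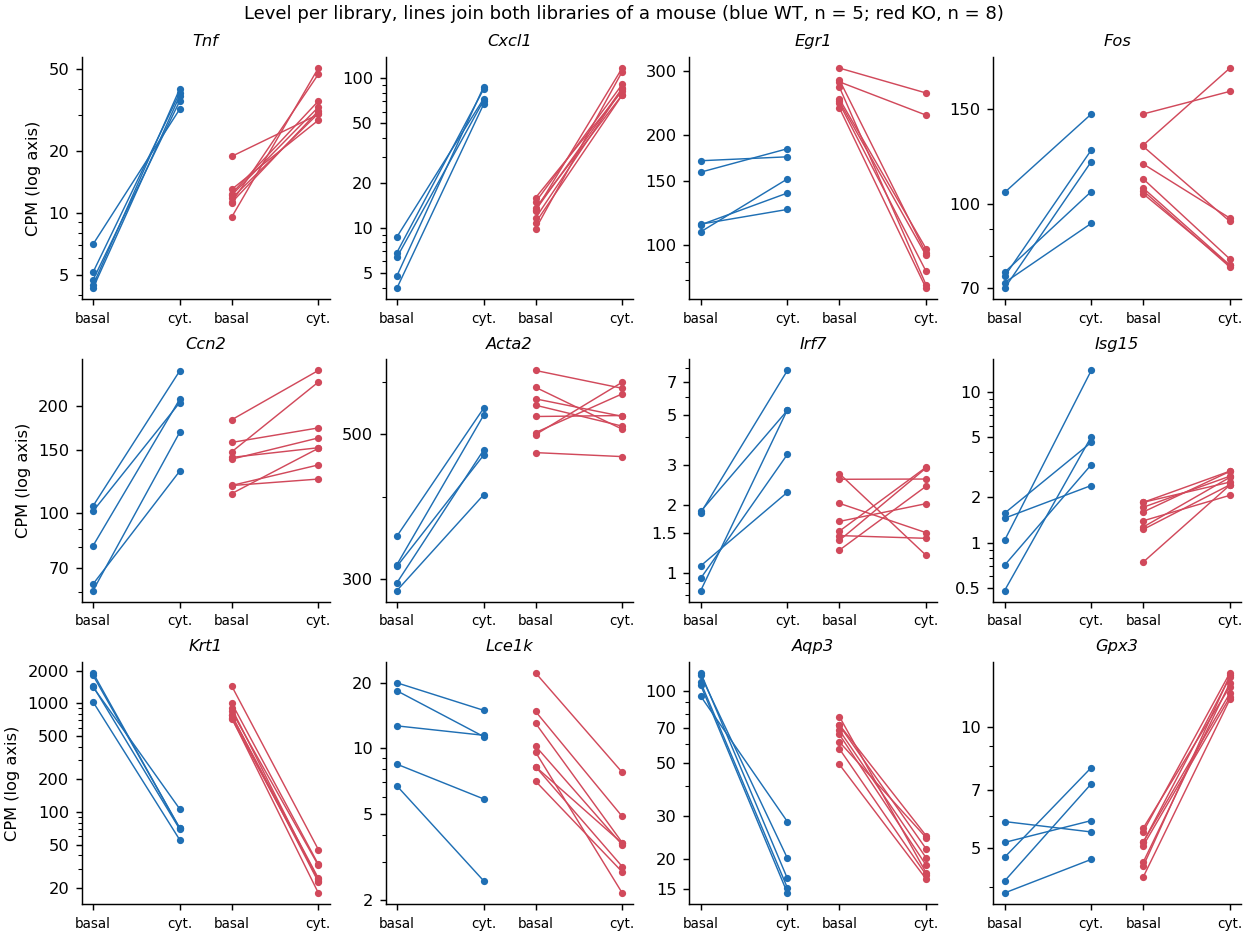
Level in CPM (log axis) of 12 genes in each library, with a line from the basal to the treated library of a mouse (blue WT, n = 5; red KO, n = 8). For *Tnf*, *Cxcl1*, *Ccn2* and *Acta2* the red lines start higher and end beside the blue ones, for *Irf7*, *Isg15*, *Krt1* and *Lce1k* they end lower on average, and for *Gpx3* they all end higher.

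Of the interferon-stimulated genes *Irf7* and *Isg15* were called with a lower change in KO cells, and WT mice varied widely. *Irf7* (chr7:140842619-140846398), a master factor of type I interferon induction, changed by 1.07, 1.80, 2.62, 1.47 and 2.08 in WT1 to WT5 and by -1.18 to 1.05 (median 0.13) in KO mice, without overlap. Its level with cytokines was 4.79 ± 2.13 CPM in WT (SD, n = 5) and 2.13 ± 0.688 CPM in KO (SD, n = 8), a log2 difference of -1.17 (adjusted p = 0.0314), while basal levels did not differ detectably (0.48, adjusted p = 0.347). The interaction was -1.62 ± 0.37 (SE, adjusted p = 0.0306) and lost its call without WT5 (adjusted p = 0.105). *Isg15*, an interferon-induced ubiquitin-like modifier, changed by 0.71, 2.19, 3.34, 1.55 and 3.72 in WT and 0.44 to 1.67 in KO mice (-1.42 ± 0.41, SE, adjusted p = 0.0949). Treated *Isg15* was 13.9 CPM in WT5 and 2.40 to 5.05 in the other WT mice, and its call held only without WT1 or KO4 (adjusted p up to 0.333 without the others). *Parp14*, which no list held, rose by 2.21 in WT5, 1.17 to 1.35 in the other WT mice and 0.37 to 1.06 in KO mice (-0.66 ± 0.16, SE, adjusted p = 0.0372), and was not called without WT5 (adjusted p = 0.107).

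Of 33 interferon-stimulated genes tested, *Irf7* and *Isg15* alone had an adjusted p under 0.1, 30 had a negative value and the median was -0.43. In WT cells 20 of the 33 were called as rising and in KO cells 13. Over all genes tested, 52.3% had a negative value, and 9.17% were called as rising in WT and 6.83% in KO cells. Fewer calls in KO cells were thus found over all genes as well. The mean change over the list was 0.60, 1.06, 1.59, 1.20 and 2.46 in WT1 to WT5 and 0.05 to 1.24 in KO mice, of which 5 of 8 lay under all WT mice. The median of the list was between -0.60 and -0.22 over the alternatives that were tried.

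Among differentiation genes, those called had a lower change in KO cells and several were lower than in WT cells after treatment. *Krt1* (chr15:101753861-101759229), the keratin of cells that leave the basal layer, changed by -4.21, -4.75, -3.72, -4.66 and -4.37 in WT1 to WT5 and by -5.35 to -4.71 (median -4.98) in KO mice. WT cells held 1522 ± 349.9 CPM before and 75.0 ± 19.1 CPM after treatment (SD, n = 5), and KO cells 903 ± 239 and 28.0 ± 8.60 CPM (SD, n = 8). The interaction was -0.68 ± 0.13 (SE, adjusted p = 0.00839), and without WT3 its fold went under the threshold (log2 -0.53). Its partner *Krt10* had a value of -0.55 ± 0.19 (SE) that did not pass (adjusted p = 0.197). Of 28 early differentiation genes tested, *Krt1* was called, and *Krt80*, *Calm4*, *Sprr1a* and *Sprr1b* had an adjusted p under 0.1 with a lower change (median of the list -0.16).

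Of 50 cornified envelope genes, 8 were called lower and none higher, with a median of -0.26. They were *Lor* (loricrin, the main envelope protein), *Tchhl1*, *Sprr2f* and the late envelope genes *Lce1c*, *Lce1d*, *Lce1f*, *Lce1i* and *Lce1k*, which lie together on chromosome 3. *Lce1k* (chr3:92713598-92715198) changed by -1.44 in WT1, -0.70 to -0.14 in the other WT mice and -2.15 to -1.17 in KO mice. Its level with cytokines was 9.22 ± 4.99 CPM in WT (SD, n = 5) and 3.91 ± 1.76 CPM in KO (SD, n = 8), and the interaction was -0.95 ± 0.19 (SE, adjusted p = 0.0102). *Lce1d* had positive changes in 4 of 5 WT mice and negative ones in 7 of 8 KO mice (-0.71 ± 0.16, SE, adjusted p = 0.0216). *Lor* fell by 2.15 and 2.78 on the log2 scale in WT and KO cells, and its interaction of -0.63 ± 0.18 (SE, adjusted p = 0.0969) was lost without WT3, WT4, WT5, KO1, KO2, KO3, KO7 or KO8. *Lce1d*, *Lce1k* and *Tchhl1* were called with each mouse left out. *Lce1c* was lost without WT3, WT4 or WT5, *Lce1i* without WT2 to WT5, KO1, KO2, KO3 or KO7, *Lce1f* in all but the fits without WT1, KO4 or KO5, and *Sprr2f* without WT2, WT3, WT4, KO2, KO4, KO5 or KO8.

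The LCE1 and SPRR2 genes are near-identical copies whose reads can be split between members, so the value of a single copy is uncertain. The strongly induced *Lce3a* (0.07 ± 0.54, SE) and *Lce3b* (0.54 ± 0.30, SE) had values that did not pass and were imprecise, with mean basal levels under 1 CPM in both genotypes. Mice differed widely in these genes under basal conditions (*Lce1k* from 6.72 to 22.3 CPM over both genotypes), and none of the 8 genes was called without the mouse as a block (0 of 8). The protease inhibitors *Serpinb12* (-0.89 ± 0.24, SE, adjusted p = 0.0685) and *Cst6* (-0.60 ± 0.11, SE, adjusted p = 0.00666), both known from differentiating keratinocytes, also fell more in KO cells. *Serpinb12* was lost without WT2, WT3, WT4, WT5 or KO5, and *Cst6* without WT2, WT3, WT5, KO1 or KO3.

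The 16 genes with a higher change in KO cells belonged to no single list. *Gpx3* (chr11:54793279-54802424), a secreted glutathione peroxidase, changed by 0.18, 0.80, -0.09, 0.74 and 0.28 in WT1 to WT5 and by 1.16 to 1.57 (median 1.33) in KO mice, without overlap. Basal levels were close, at 4.76 ± 0.785 CPM in WT (SD, n = 5) and 4.99 ± 0.485 CPM in KO (SD, n = 8), and with cytokines 6.24 ± 1.32 CPM stood against 12.7 ± 0.736 CPM. The interaction was 0.97 ± 0.16 (SE, adjusted p = 0.00191). It was the only gene of the 16 that was called as a genotype difference with cytokines (log2 1.02, adjusted p = 1.7e-05).

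*Aqp3* (chr4:41092722-41098183), the water and glycerol channel of the epidermis, fell by less in KO cells. Its changes were -1.73 in WT1, -2.87 to -2.53 in the other WT mice and -2.16 to -1.32 in KO mice, and the interaction was 0.86 ± 0.16 (SE, adjusted p = 0.00603). Basal KO cells held 65.5 ± 9.23 CPM (SD, n = 8) against 109 ± 9.41 CPM in WT (SD, n = 5), and treated cells 20.2 ± 3.30 against 18.9 ± 5.78 CPM. *Ltb4r1*, the receptor of leukotriene B4, changed by -0.87, -2.15, -0.85, -1.01 and -1.22 in WT and by -0.72 to 0.05 in KO mice, without overlap (0.90 ± 0.21, SE, adjusted p = 0.0345). *Elovl6*, which elongates saturated fatty acids, changed by -1.19 to -0.56 in WT and -0.68 to -0.15 in KO mice (0.66 ± 0.11, SE, adjusted p = 0.00208). *Lrp8*, a lipoprotein receptor, was called as rising in KO (0.80) and not in WT (0.17), without overlap (0.64 ± 0.14, SE, adjusted p = 0.0196). These 5 genes were called with every mouse left out.

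The insulin signalling adaptor *Irs1* (0.72 ± 0.18, SE, adjusted p = 0.0411), the lysophospholipid transporter *Mfsd2a* (1.22 ± 0.34, SE, adjusted p = 0.0775) and the prolactin receptor *Prlr* (1.44 ± 0.39, SE, adjusted p = 0.0689) fell in both genotypes and by less in KO cells. *Sting1*, the sensor adaptor of cytosolic DNA (1.19 ± 0.34, SE, adjusted p = 0.0869), was called as rising in KO cells, and *Cdc6*, which loads the replicative helicase, had a value of 0.64 ± 0.18 (SE, adjusted p = 0.0764). *Irs1* was lost without WT3 or WT4. *Cdc6* was lost without WT2 to WT5, KO2, KO3 or KO5, *Prlr* without WT2 to WT5, KO1, KO6 or KO7, *Sting1* without WT2 to WT5, KO1, KO2, KO3, KO6 or KO8, and *Mfsd2a* without WT2, WT3, WT4, KO1, KO2, KO3, KO5, KO6 or KO7.

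**Figure D5:**
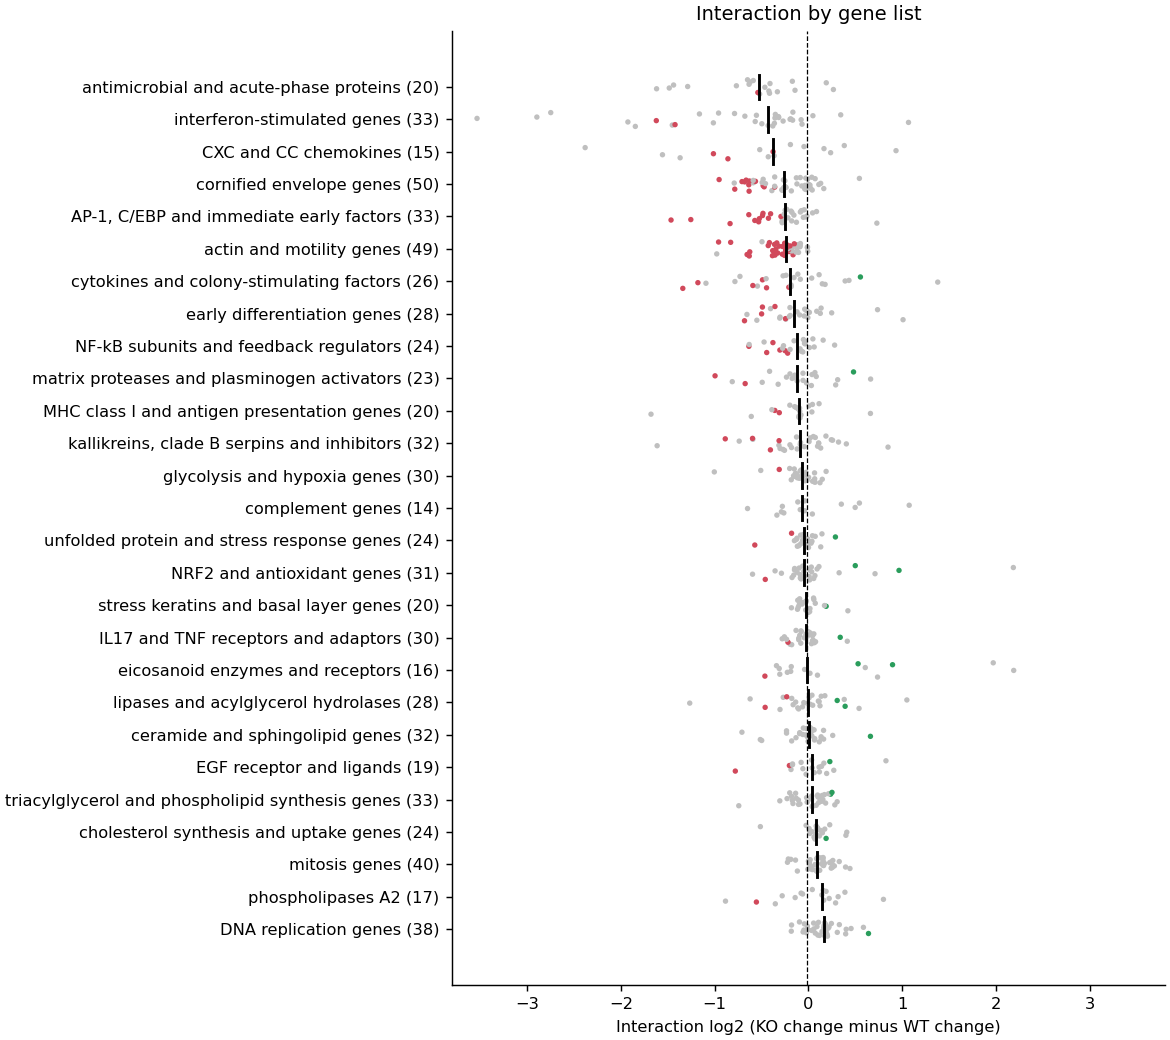
Interaction log2 (x axis, KO change minus WT change) of the members of each gene list, with 1 point per gene (red and green, adjusted p under 0.1; grey, others), a bar at each list's median and a dashed line at the median of all genes (-0.01). The number tested stands in brackets. The actin and motility points lie left of 0 for all 49 members, and the chemokine and interferon lists have medians of -0.38 and -0.43 with wide spread.

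Beside the 0.474% of all genes that were called, a single call or none is no result about a lipid list, and the lists are given as a description. Of 17 phospholipases A2 none was called, and 1, *Pla2g2f*, had an adjusted p under 0.1 (-0.55 ± 0.15, SE, adjusted p = 0.0577). The cytosolic family members *Pla2g4a* (0.16), *Pla2g4b* (0.80), *Pla2g4e* (-0.14) and *Pla2g4f* (0.32) did not pass. Of 28 lipases and acylglycerol hydrolases none was called, with *Mgll* lower (-0.46 ± 0.09, SE, adjusted p = 0.0118) and *Lipg* higher (0.39 ± 0.08, SE, adjusted p = 0.0182) by the adjusted p alone. *Elovl6* was the only call among 32 ceramide and sphingolipid genes, and *Ltb4r1* the only call among 16 eicosanoid genes, where *Ptgs2* (cyclooxygenase-2) and *Ltb4r2* also had an adjusted p under 0.1. Of 6 lipid genes that the study names for treated KO cells 0 were called, all 6 had a negative value (median -0.29), and 6 of 8 KO mice lay under all WT mice in the mean change. That list was chosen on these libraries and is not independent evidence of a direction. Of 24 cholesterol synthesis and uptake genes 0 were called, 2 had a negative value and the median was 0.08. Genes of mitosis (median 0.10, 0 of 40 called) and of DNA replication (median 0.17, 1 of 38 called) had small positive medians. Among the remaining lists the triacylglycerol and phospholipid synthesis genes (median 0.04, 33 tested), MHC class I and antigen presentation genes (-0.10, 20 tested), complement genes (-0.06, 14 tested), glycolysis and hypoxia genes (-0.07, 30 tested), unfolded protein response genes (-0.05, 24 tested) and stress keratins and basal layer genes (-0.03, 20 tested) had 0 calls. Of 31 NRF2 and antioxidant genes *Gpx3* alone was called (median -0.05).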

How the data were processed

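RNA-seq libraries of 13 mice (26 libraries) were strand-specific. Per the labels and the study's methods, the authors aligned reads to mm39 with STAR 2.7.10b and made raw counts per gene with featureCounts 2.0.6 and GENCODE annotation. The strand setting of the counting was not given in the sources used here. The deposited log2 values, normalized by the authors, differed from log2 values rebuilt from the counts by over 0.01 for 50 symbols (20 of them tested) and served only in an alternative. No other sample columns were found.

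Counts were fitted with edgeR 4.0.16 (R 4.3.3; TMM, quasi-likelihood) for 16893 of 56738 symbols with a mean normalized count over 10. The design held 1 term per mouse and a cytokine term per genotype, and the interaction was the difference of the cytokine terms. Each SE of an interaction was its absolute log2 value over the square root of the quasi-likelihood F statistic. It thus comes from the same test as the p value and is no separate measure of precision. Genes were called at an adjusted p (Benjamini-Hochberg) under 0.1 and a fold over 1.5. Genotype differences within a condition came from a fit of the 4 groups without mice. Within-mouse changes were differences of log2 CPM with a prior count of 1. The mouse as a block comes from the shared title prefix, which marks 1 animal. The correlation of the paired libraries' deviations was 0.00 to 0.25 (median 0.11). Total counts had medians between 47544479.5 (KO with cytokines) and 57187471 (WT with cytokines) in the 4 groups, and replicate libraries differed by more than counting noise.

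Named genes were the 15 most negative and 10 most positive called genes whose mean normalized count exceeded 100, the 10 with the smallest adjusted p, up to 5 called members per gene list or else the member with the smallest p, the *Pla2g4* family and genes that the study names. Outside this rule and after their values were seen, the text names *Atp1b1*, *Calm5*, *Edn1*, *Inhba*, *Kcnmb1*, *Lce1f*, *Lce1i*, *Lrp8*, *Lurap1l*, *Parp14*, *Prlr*, *Prokr2*, *Rgs4*, *Sting1*, *Tlr2*, *Malat1*, *Neat1* and list members past the adjusted p alone. The comparison, gene lists and tests were chosen with earlier results of these data known. Gene positions are those of GRCm39 (157 of 159 named genes matched), and promoters those of RefSeq on GRCm38.p6. The fit was tested on simulated data. Alternatives were DESeq2 1.42.0, limma 3.58.1, other scalings and filters, no block, and each mouse left out.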

Additional observations from a re-analysis of the deposited data

Results flagged for a closer look

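The interaction test itself marked 80 genes whose cytokine response differed between genotypes. Single mice also lay far from the rest of their genotype in the within-mouse log2 change of a called gene. This was asked with Dixon's ratio (the gap to the nearest mouse over the range of the group) in 160 groups, of which 12 passed its limit, where chance alone marks about 1 in 20 groups. Among WT mice, WT1 had the smallest rise of *Tnf* (2.18 against 2.88 to 3.16, ratio 0.714) and of *Cxcl12* (0.674 against 1.49 to 1.81, ratio 0.715). WT2 had the largest fall of *Ltb4r1* (-2.15 against -1.22 to -0.847, ratio 0.713) and WT5 the largest rise of *Parp14* (2.21 against 1.17 to 1.35, ratio 0.827).

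Among KO mice, KO8 had the largest change of *Tnfaip3* (1.65 against 1.05 to 1.17, ratio 0.794), *Inhba* (1.31 against 0.582 to 0.886, ratio 0.585) and *Dusp1* (0.815 against -0.192 to 0.282, ratio 0.529). KO7 had that of *Efhd1* (1.95 against -0.696 to 0.527, ratio 0.538). KO2 had the lowest change of *Egr2* (-1.91 against -0.943 to -0.283, ratio 0.593). KO4 had the highest change of *Cst6* (-1.11 against -1.71 to -1.46, ratio 0.595) and of *Gm28592* (2.3 against 0.603 to 1.3, ratio 0.589), and KO3 that of *Vwa2* (0.293 against -0.434 to -0.105, ratio 0.547).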

How the results depend on the processing

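The count of 80 genes called for the interaction was 122 with no filter on low counts, 50 with limma on log2 CPM changes, 50 with limma on the authors' log2 values, 124 with KO7 and KO8 left out together (an alternative chosen after seeing the data) and 473 with no threshold on the fold. The 64 genes with a lower change became 35 in each limma fit and 350 with no threshold on the fold. The 16 with a higher change became 26 with no filter, 27 with DESeq2, 30 without KO7 and KO8, 123 with no threshold on the fold and 9 at an adjusted p under 0.05. Leaving out 1 mouse at a time gave 45 to 156 calls in all, 36 to 128 lower and 9 to 32 higher. The cause was not tested, apart from the fewer mice or the changed threshold. Without the replicate block (the pairing of the libraries of 1 mouse) the counts were 37 in all, 31 lower and 6 higher, 36 of them among the 80. DESeq2 called 67 of the 80, gave no adjusted p for 12 and lost *Lor* (adjusted p = 0.101). DESeq2's size factors in edgeR called all 80, library totals 70 and filterByExpr 77. Each limma fit of the within-mouse changes called 44 of the 80 and did not call the other 36. Results of the limma fits for single genes are not given above. No called gene changed its sign. The medians near 0 of the ceramide, complement, EGF receptor, eicosanoid, IL17 and TNF receptor, lipase, stress keratin, triacylglycerol synthesis, endothelial and fibroblast lists took both signs over the alternatives (for example -0.17 to 0.02 for complement genes), so no direction is read from them. Medians of the interaction over all genes moved by under 0.1 with these scalings, to -0.0087 and 0.021. Precision was limited by 5 WT mice and, for genes near 0 such as *Rgs4*, by counts.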
